A study of Mus musculus with 12 samples.

Results

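The sirtuin family of the mouse consists of 7 genes, Sirt1 to Sirt7, which were picked by their Ensembl gene IDs among the 57010 IDs counted in each library. All 7 passed the filter on low counts, as did 14253 genes in all. The study asked, as its title puts it in other words, what Sirt5 does in the metabolism of cartilage cells and in osteoarthritis, and how malonylation of lysines takes part. Primary mouse chondrocytes were profiled by poly(A) RNA-seq in 12 libraries, 4 for each of 3 treatments: Control, a plasmid labelled WT, read here as wild-type SIRT5, and a plasmid labelled SIRT5F101L, a SIRT5 whose name denotes phenylalanine (F) replaced by leucine (L). The genotype label is "Wild type" in all 12 libraries. What the Control cells received, the species and promoter of the plasmid insert, the time after transfection, the age of the animals and whether cells of several animals were pooled are not stated. Nothing says that libraries came from separate cultures, so p-values measure only the spread between these samples, which may be technical.

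Sirtuins are enzymes that remove acyl groups from lysines of proteins and use up NAD+ in doing so, which ties their activity to the cell's NAD+ supply. SIRT1, SIRT6 and SIRT7 are mainly nuclear, SIRT2 is mainly cytosolic, and SIRT3, SIRT4 and SIRT5 reside in mitochondria. SIRT3 is chiefly a deacetylase, while SIRT5 prefers malonyl, succinyl and glutaryl groups and has little deacetylase activity. In cartilage, SIRT1 and SIRT6 are known for guarding chondrocytes against inflammatory and ageing-related damage.

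The libraries held 15095357 to 24242139 counts. All IDs on chromosomes X, Y and M were at 0 in every library, so only autosomal genes could be compared, and all sirtuins are autosomal. Summed over 8 chondrocyte markers, the level was 8944 to 11249 CPM (counts scaled to a common library size of 1000000, with factors from edgeR's trimmed mean of M-values, TMM) in Control, 2709 to 2830 CPM in WT and 2194 to 2446 CPM in SIRT5F101L, so as a sum the labelled cell type's markers were present throughout. Single markers were scarce with the plasmids: in the same order Matn1 averaged 2.15, 0.832 and 0.542 CPM and Matn3 44.6, 3.85 and 2.67 CPM. Of these 8 markers 7 were called lower with either plasmid by the edgeR test described with the fold changes, while Acan, the proteoglycan aggrecan, rose in WT (log2 fold change 0.47) and was not called in SIRT5F101L (0.10). Leukocyte markers (7 genes, of which Itgam was at 0 in all libraries) summed to 164 to 197, 128 to 148 and 138 to 176 CPM in the same order, a sum of members that moved apart: of 6 tested, 1 was called higher and 5 lower in each comparison with Control. Fibroblast markers (5 genes) summed to 17389 to 20566, 6026 to 6846 and 5887 to 6832 CPM, with 4 called lower and 1, Pdgfra, called higher in each comparison. Endothelial markers (4 genes) summed to 2.21 to 3.03, 1.90 to 2.56 and 1.92 to 2.66 CPM. In bulk samples, fewer cells of a type and less RNA per cell cannot be told apart, and the part of these shifts in the sirtuin values was not tested. A gene's level followed its length differently between libraries. Each gene's log2 CPM, less its mean over the 12 libraries, was set against the log2 length of its longest transcript. The slope was -0.07 to -0.04 in Control, -0.04 to 0.05 in WT, and 0.08 to 0.10 in SIRT5F101L except replicate 1, which had -0.06. A slope's sign is therefore relative to the other libraries.

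Sirt5 (ENSMUSG00000054021; chr13:43365496-43395203, plus strand, GRCm38), the gene named on the plasmids, was the least abundant sirtuin. The codon that the SIRT5F101L label refers to was read from the annotated mouse transcripts, because it shows what the second plasmid would alter if it carried the mouse sequence. The codon at the named position codes for phenylalanine in all 5 coding transcripts that reach it. The stretch from codon 94 to codon 108 is given with that codon, the middle of the stretch, in capitals. The letters before the start of Sirt5 are given below it, and whether they have a part in its low level was not tested.
Sirt5 codons 94 to 108: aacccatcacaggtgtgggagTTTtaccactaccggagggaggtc
Sirt5 upstream (chr13:43365285-43365495, plus strand): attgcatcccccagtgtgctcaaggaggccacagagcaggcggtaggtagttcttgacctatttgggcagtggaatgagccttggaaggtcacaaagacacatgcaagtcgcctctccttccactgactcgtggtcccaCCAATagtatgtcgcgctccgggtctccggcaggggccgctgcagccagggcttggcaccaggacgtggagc
Sirt2 upstream (chr7:28766641-28766734, plus strand): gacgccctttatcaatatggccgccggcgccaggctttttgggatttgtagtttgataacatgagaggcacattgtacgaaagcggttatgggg
The 94 bases before Sirt2 are shown because Sirt2 had the highest level and the clearest difference in the family, and they lie between its first exon and the nearest upstream exon of Nfkbib, an NF-kB inhibitor gene on the opposite strand. Both upstream stretches come from RefSeq promoters (GRCm38.p6), cut to the bases outside annotated exons, and capitals mark motif matches. All 7 sirtuins matched that promoter set.

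The motifs searched on both strands were the E-box CACGTG, the CCAAT box CCAAT, the ETS motif CCGGAAG, the E2F motif TTTCCCGC, the CRE TGACGTCA and the FOXO motif GTAAACA. The 211 bases before Sirt5 held CCAAT, as did 30.01% of all 32851 promoters at the same distance and length, and none of the 6 motifs was found in the 94 bases before Sirt2. Over the whole 250 bases before the annotated start, Sirt1 held CACGTG at 115 and 43 bases before the start (6.02% of promoters hold it). Sirt2 held CCAAT at 216 and 165 bases (33.8% of promoters), within an exon of Nfkbib. Sirt3 held CCGGAAG at 85 bases before one annotated start (6.91% of promoters) and CCAAT at 188 bases before another. Sirt6 held CCGGAAG at 35 bases before 1 of its 2 annotated starts, Sirt7 held CCGGAAG at 51 bases, and Sirt4 held TTTCCCGC at 9 bases (0.895% of promoters). By the GENCODE annotation the matches of Sirt1, Sirt4 and Sirt5 lay outside exons, while those of Sirt3, Sirt6 and Sirt7, like those of Sirt2, lay in annotated exons. No match overlapped another. These are matches of letters, with motifs chosen with the sequences in view, and no binding was measured.

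No difference in Sirt5 mRNA was detected between Control and the libraries labelled with a SIRT5 plasmid. Its counts were 11, 15, 9 and 16 in Control, 9, 9, 8 and 1 in WT, and 9, 19, 15 and 10 in SIRT5F101L. In TMM-scaled CPM these were 0.638, 0.760, 0.479 and 0.873 in Control, 0.444, 0.577, 0.462 and 0.0514 in WT, and 0.481, 1.23, 0.601 and 0.566 in SIRT5F101L. All 3 groups overlapped, WT replicate 4 was the lowest library, with fewer than the 3 counts that bound a reading of 0, and SIRT5F101L replicate 2 was the highest. The means were 0.688 ± 0.169 CPM in Control, 0.383 ± 0.229 CPM in WT and 0.720 ± 0.346 CPM in SIRT5F101L (SD, n = 4). By an exact two-sided permutation test over 70 arrangements, the difference of WT from Control was -0.304 CPM (p = 0.0571, 0.129 adjusted over the 3 pairs of groups). For SIRT5F101L the difference from Control was 0.0328 CPM (exact permutation p = 0.886, also 0.886 adjusted) and the difference from WT was 0.337 CPM (exact permutation p = 0.0857, 0.129 adjusted). The smallest p this design allows is 0.0286. The interval of the log2 fold change ran from -1.89 to 0.16 for WT and from -0.90 to 0.97 for SIRT5F101L against Control, so a lower or a higher level within those bounds is compatible with the data. The WT value rested in part on WT replicate 4: the log2 fold change was -0.86 (edgeR adjusted p = 0.143), and -0.48 without that library (edgeR adjusted p = 0.379). Whether transcripts of the plasmids would be counted as mouse Sirt5 is not known, since the species of the insert is not stated, and Sirt5 therefore does not check the labels. Copies of at least 95% identity elsewhere covered 43.0% of its longest transcript but 0% of the 2 transcripts with the 310-codon reading frame.

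Across genes, levels were compared per kilobase of merged exon (TMM-scaled CPM per kb), and Sirt2 stood above the rest in every library. In Control the mean level per kb was 28.1 for Sirt2, 7.93 for Sirt6, 6.97 for Sirt7, 5.23 for Sirt4, 4.24 for Sirt1, 1.92 for Sirt3 and 0.113 for Sirt5. The ranges of neighbours in this order did not overlap, other than those of Sirt6 and Sirt7. In WT the order of the mean level per kb was Sirt2 (20.8), Sirt7 (7.98), Sirt6 (6.11), Sirt1 (4.47), Sirt4 (4.24), Sirt3 (2.26) and Sirt5 (0.0629), with overlap of neighbours only between Sirt1 and Sirt4. In SIRT5F101L it was Sirt2 (19.4), Sirt7 (6.75), Sirt6 (5.29), Sirt1 (4.90), Sirt4 (4.08), Sirt3 (2.25) and Sirt5 (0.118), and the ranges of Sirt6 and Sirt1, and of Sirt1 and Sirt4, overlapped. Sirt7 thus lay above Sirt6 with either plasmid, while their ranges overlapped in Control. The order of Sirt4 and Sirt1 depended on the length used: with the exon bases shared with other genes left out, their ranges overlapped in Control too, and in WT the mean per kb of longest transcript was 5.67 for Sirt4 and 5.38 for Sirt1. The size of the lead of Sirt2 also did, since per kb of longest transcript the Control means were 66.7 for Sirt2 and 11.7 for Sirt6.

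**Figure D1:**
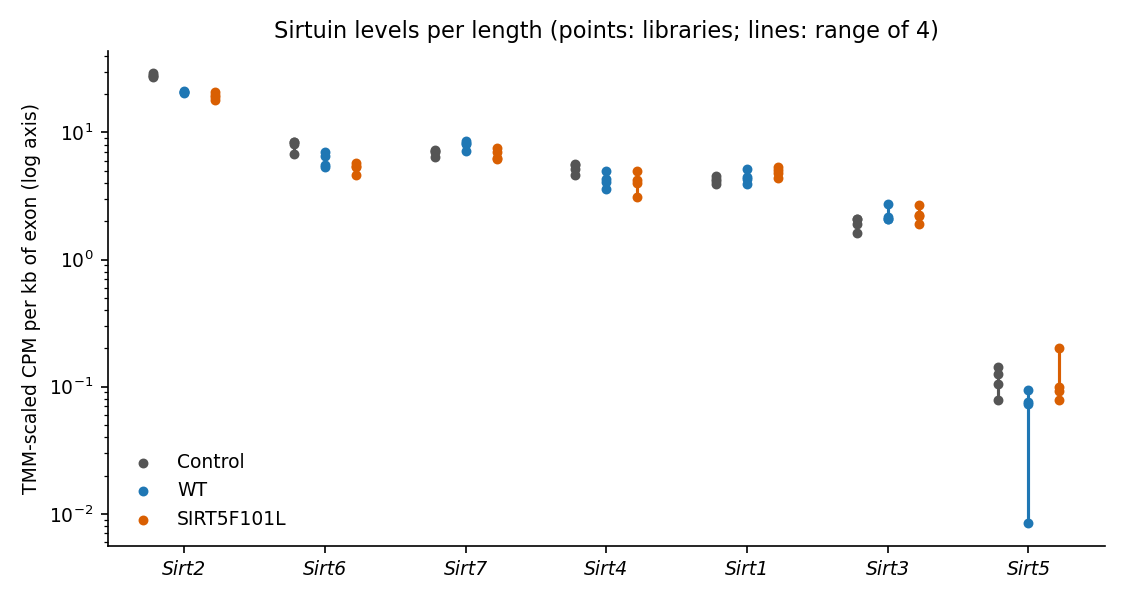
Level of each sirtuin in TMM-scaled CPM per kilobase of merged exon (log axis), ordered by the Control mean; points are libraries and lines span the 4 libraries of a group. Sirt2 lies highest in every library (18.1 to 29.2) and Sirt5 lowest, with the lowest point of all, 0.00843, in WT replicate 4.

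Summed over the 7 genes, the level per kb was 54.5 ± 0.459 in Control (54.0 to 55.1), 45.9 ± 1.02 in WT (45.0 to 47.2) and 42.8 ± 1.55 in SIRT5F101L (41.0 to 44.6; SD, n = 4), so the groups with a plasmid lay below all Control libraries. The fall was not shared by all members. Sirt2 alone went from 28.1 to 20.8 and 19.4, while the means of Sirt1 and Sirt3 were higher with either plasmid. Sirt2 made up 51.5% ± 1.35 of this sum in Control, 45.3% ± 1.20 in WT and 45.3% ± 1.65 in SIRT5F101L. The share of Sirt7 was 12.8% ± 0.640, 17.4% ± 1.17 and 15.8% ± 1.18 in the same order, that of Sirt1 was 7.78% ± 0.429, 9.75% ± 1.15 and 11.5% ± 1.23, and that of Sirt6 was 14.6% ± 1.56, 13.3% ± 1.51 and 12.4% ± 1.17. These shares describe how the family's mRNA was divided and carry no test. A share can rise without the level: Sirt7 stood at 6.97 per kb in Control and 6.75 in SIRT5F101L.

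Against Control, 3 of the 7 sirtuins differed in WT, with Sirt2 and Sirt6 lower and Sirt7 higher, and 3 in SIRT5F101L, with Sirt2, Sirt4 and Sirt6 lower. Calls are edgeR quasi-likelihood tests with Benjamini-Hochberg adjusted p under 0.05 over all 14253 genes. By the same rule 56.8% of all genes tested were called in WT (28.7% higher, 28.1% lower) and 60.7% in SIRT5F101L (30% higher, 30.7% lower), so the sirtuins were not called more often than other genes. The groups did not overlap for 1 of 7 sirtuins in WT (Sirt2) and 2 of 7 in SIRT5F101L (Sirt2 and Sirt6), where 53.5% and 51.3% of all genes did not overlap. The median log2 fold change of the 7 was -0.30 in WT and -0.05 in SIRT5F101L, beside -0.01 and -0.02 for all genes tested. Both comparisons share the 4 Control libraries.

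**Figure D2:**
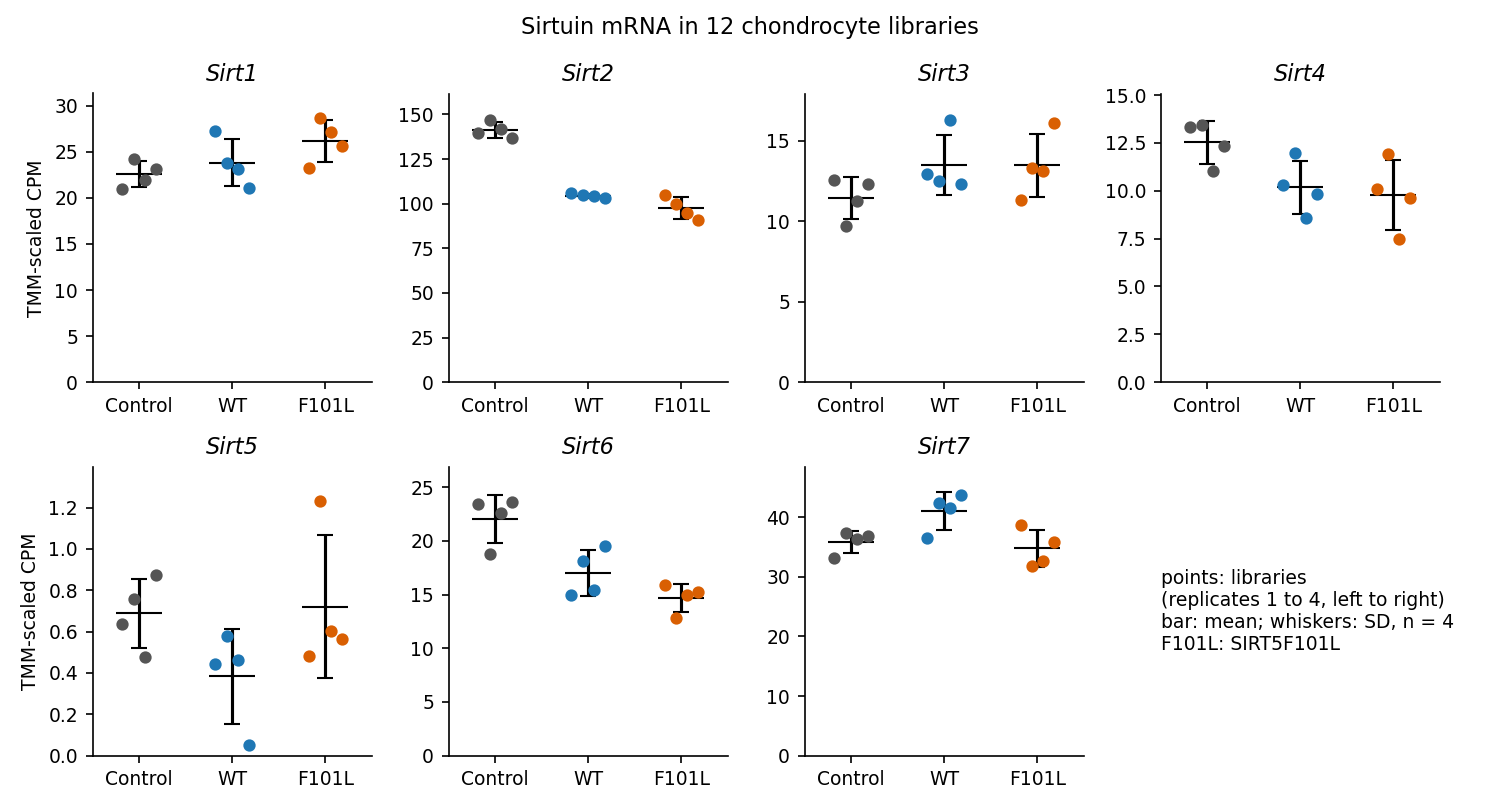
TMM-scaled CPM of each sirtuin in the 12 libraries, by group (F101L stands for SIRT5F101L); points are replicates 1 to 4 from left to right, bars are means and whiskers SD (n = 4), and each panel has its own axis from 0. Sirt2 sits between 137 and 147 CPM in Control and between 90.9 and 106 CPM in the 8 plasmid libraries, while Sirt5 stays at or under 1.23 CPM throughout.

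Sirt2 (ENSMUSG00000015149; chr7:28766735-28788661, plus strand), a deacetylase known for acting on tubulin and on metabolic enzymes of the cytosol, fell with either plasmid. Its levels were 140, 147, 142 and 137 CPM in Control, 106, 105, 104 and 103 CPM in WT, and 105, 99.8, 94.8 and 90.9 CPM in SIRT5F101L. Every plasmid library lay below every Control library, the 4 WT libraries lay within 3 CPM of each other, and SIRT5F101L reached lower values while overlapping WT. The log2 fold change was -0.43 in WT (SE 0.06, edgeR adjusted p = 1.71e-06) and -0.53 in SIRT5F101L (SE 0.06, edgeR adjusted p = 9.42e-08), and by the group means it fell by 25.98% in WT and fell by 30.9% in SIRT5F101L. Among all genes tested, 43.8% had a larger absolute fold change in WT and 38.9% in SIRT5F101L. In each of the 19 alternative analyses of either comparison Sirt2 was called lower. A transcript of Nfkbib that starts within Sirt2 shares 42 bases of exon with it (0.834% of the exon bases of Sirt2), and Nfkbib was not called (log2 fold change 0.10 in WT and 0.0035 in SIRT5F101L, edgeR adjusted p = 0.282 and 0.972).

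Sirt6 (ENSMUSG00000034748; chr10:81621785-81627797, minus strand), a nuclear deacylase known for keeping chromatin at telomeres and glycolytic genes deacetylated, fell as well. Its levels were 23.4, 18.8, 22.6 and 23.6 CPM in Control, 14.9, 18.1, 15.5 and 19.5 CPM in WT, and 15.9, 12.9, 14.9 and 15.2 CPM in SIRT5F101L. In WT only replicate 4 reached above the lowest Control library, and all 4 SIRT5F101L libraries lay below every Control library. Against Control its log2 fold change was -0.38 in WT (SE 0.11, edgeR adjusted p = 0.00483) and -0.58 in SIRT5F101L (SE 0.11, edgeR adjusted p = 8.99e-05), and by the group means it fell by 22.9% in WT and fell by 33.3% in SIRT5F101L. It was called lower in each of the 19 alternative analyses of either comparison.

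Sirt7 (ENSMUSG00000025138; chr11:120618372-120625240, minus strand), the nucleolar sirtuin known for its role in ribosomal RNA transcription, rose in WT by a small amount. Its levels were 33.1, 37.3, 36.3 and 36.8 CPM in Control, 36.5, 42.4, 41.6 and 43.7 CPM in WT, and 38.7, 31.9, 32.7 and 35.8 CPM in SIRT5F101L. Of the WT libraries, 3 lay above all of Control and replicate 1 lay within it, and SIRT5F101L replicate 1 lay above the Control range while replicates 2 and 3 lay below it. The log2 fold change was 0.19 in WT (SE 0.08, edgeR adjusted p = 0.0456) and -0.05 in SIRT5F101L (SE 0.08, edgeR adjusted p = 0.644). The WT call held in only 8 of 19 alternatives, over which the log2 fold change was 0.14 to 0.25 and the adjusted p reached 0.140, and it was lost without any of the Control libraries, without WT replicate 2, 3 or 4, and without SIRT5F101L replicate 4, and also with upper-quartile scaling (0.14, edgeR adjusted p = 0.134), with no filter beyond 1 count (0.20, 0.0760) and with the length trend taken out (0.17, 0.0612). Of its exon bases, 3.46% overlap Mafg, a small MAF transcription factor on the same strand, and Mir6936, and Mafg rose (log2 fold change 0.43 in WT and 0.31 in SIRT5F101L, edgeR adjusted p = 1.04e-05 and 0.000273). How reads in the shared bases were counted is not given in the sources used here, and their part in the Sirt7 value was not tested.

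Sirt1 (ENSMUSG00000020063; chr10:63319005-63381704, minus strand), the nuclear deacetylase of p53, FOXO factors and NF-kB p65, was not called in either comparison. Its levels were 21.01, 24.3, 21.98 and 23.1 CPM in Control, 27.3, 23.8, 23.1 and 21.1 CPM in WT, and 23.2, 28.6, 27.1 and 25.6 CPM in SIRT5F101L. WT replicate 1 was the highest of its group and SIRT5F101L replicate 1 the lowest of its own, and these are also the libraries with the highest and the lowest length slope of their groups. The log2 fold change was 0.08 in WT (95% interval -0.11 to 0.27, edgeR adjusted p = 0.491) and 0.21 in SIRT5F101L (95% interval 0.02 to 0.40, edgeR adjusted p = 0.0540). The latter passed the threshold in 7 of 19 alternatives, among them those without SIRT5F101L replicate 1 (0.26, edgeR adjusted p = 0.0129), Control replicate 2 (0.24, 0.0443), WT replicate 1 (0.21, 0.0408) and WT replicate 4 (0.21, 0.0482), and with the length trend taken out it was 0.12 (edgeR adjusted p = 0.233). The ratio of Sirt1 to Sirt6 counts, which does not depend on the scaling, was 1.04 ± 0.174 in Control, 1.43 ± 0.315 in WT and 1.80 ± 0.321 in SIRT5F101L (SD, n = 4). It can still carry the length trend, since the longest transcript has 4430 bases for Sirt1 and 1891 for Sirt6. The part of that trend in the ratio was not tested.

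Sirt4 (ENSMUSG00000029524; chr5:115478010-115484725, minus strand), a mitochondrial sirtuin known for restraining glutamate dehydrogenase, was lower in SIRT5F101L. Its levels were 13.3, 13.4, 11.0 and 12.3 CPM in Control, 10.3, 11.98, 8.60 and 9.82 CPM in WT, and 10.1, 11.9, 7.49 and 9.63 CPM in SIRT5F101L. In each plasmid group replicate 2 lay within the Control range and the other 3 libraries lay below it. The log2 fold change was -0.30 in WT (SE 0.13, edgeR adjusted p = 0.0609) and -0.37 in SIRT5F101L (SE 0.13, edgeR adjusted p = 0.0233). The calls were not stable: the SIRT5F101L call held in 15 of 19 alternatives but not without SIRT5F101L replicate 3 (-0.25, edgeR adjusted p = 0.112), Control replicate 1 (-0.34, 0.0597) or Control replicate 2 (-0.33, 0.0620), nor with the length trend taken out (-0.25, edgeR adjusted p = 0.0984), and in WT Sirt4 passed the threshold in 7 of 19.

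Sirt3 (ENSMUSG00000025486; chr7:140863666-140882309, minus strand), the main mitochondrial deacetylase, was not called. Its levels were 12.5, 9.67, 11.3 and 12.3 CPM in Control, 12.9, 12.5, 16.3 and 12.3 CPM in WT, and 11.3, 13.3, 13.1 and 16.1 CPM in SIRT5F101L. WT replicate 3 and SIRT5F101L replicate 4 stood above the other libraries, and both plasmid groups overlapped Control. Against Control its log2 fold change was 0.24 in WT (95% interval -0.02 to 0.50, edgeR adjusted p = 0.112) and 0.23 in SIRT5F101L (95% interval -0.03 to 0.49, edgeR adjusted p = 0.113), and it passed the threshold in 0 and 1 of 19 alternatives. Both values rested in part on single libraries: in WT it was 0.14 without WT replicate 3 (edgeR adjusted p = 0.381), and in SIRT5F101L it was 0.14 without SIRT5F101L replicate 4 (0.375), 0.16 without Control replicate 2 (0.318) and 0.31 without SIRT5F101L replicate 1 (0.0266). Of its exon bases, 12.7% overlap Ric8a and Psmd13, both on the opposite strand. Ric8a, a chaperone of G alpha proteins, fell (log2 fold change -0.26 in WT and -0.28 in SIRT5F101L, edgeR adjusted p = 0.00245 and 0.00153), and Psmd13, a proteasome subunit, was not called (0.10 and -0.04). The strand setting of the counting is not given in the sources used here, so reads from these partners cannot be told apart from those of Sirt3 in the shared bases. The ratio of Sirt3 to Sirt4 counts was 0.921 ± 0.138 in Control, 1.36 ± 0.368 in WT and 1.42 ± 0.345 in SIRT5F101L (SD, n = 4). This ratio too can carry the length trend, since the longest transcripts have 3206 and 1794 bases.

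**Figure D3:**
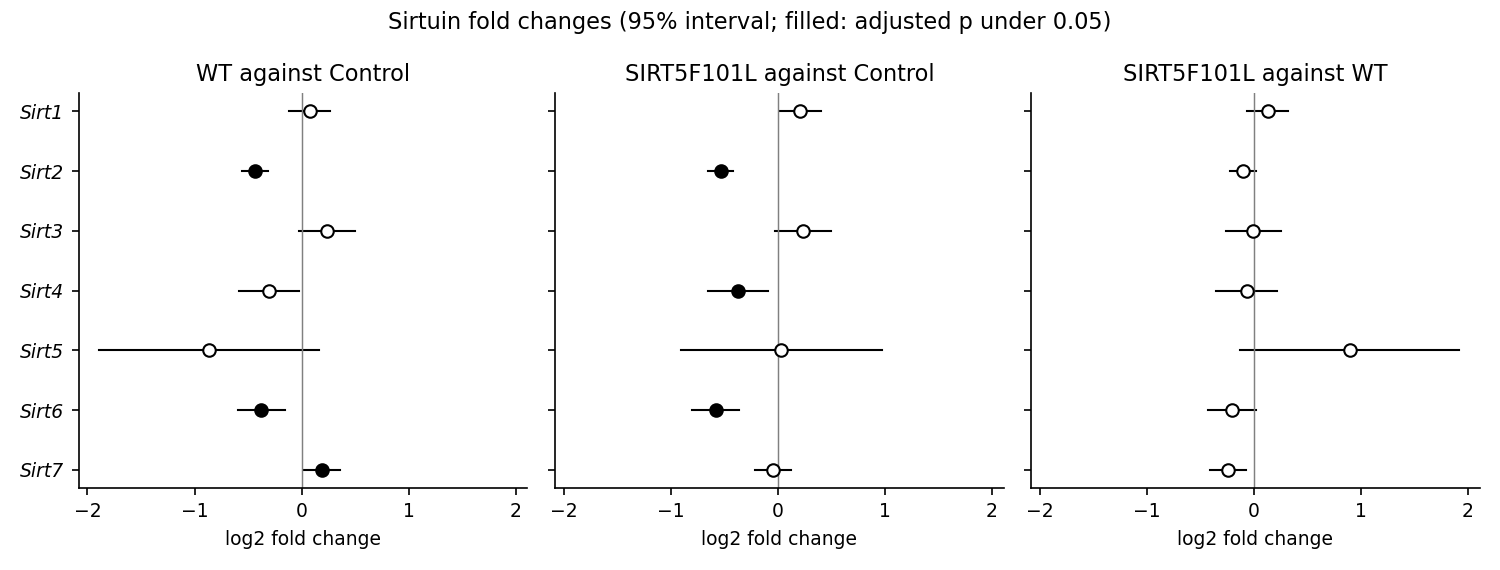
Log2 fold change of each sirtuin in the 3 comparisons, with its 95% interval from the edgeR fit; filled points have an adjusted p under 0.05 over all genes tested. Sirt2 and Sirt6 are filled and negative in both comparisons with Control, and no point is filled in SIRT5F101L against WT, where the interval of Sirt5 is the widest (-0.13 to 1.92).

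Between the SIRT5F101L and WT plasmids, 0 of 7 sirtuins were called by edgeR or by DESeq2, where edgeR called 0.0421% of all genes tested (6 genes) and 11.9% had an unadjusted p under 0.05. The groups overlapped for all 7 sirtuins, where 4.03% of all genes did not overlap. Sirt7 was the only sirtuin with an unadjusted p under 0.05: its log2 fold change was -0.24 (95% interval -0.41 to -0.07, edgeR unadjusted p = 0.00741, adjusted p = 0.355). Values for the others were 0.13 for Sirt1 (95% interval -0.06 to 0.32), -0.10 for Sirt2 (-0.22 to 0.02), -0.01 for Sirt3 (-0.26 to 0.25) and -0.07 for Sirt4 (-0.35 to 0.22). For Sirt6 it was -0.21 (-0.43 to 0.02), and for Sirt5 0.90 (-0.13 to 1.92), which was 0.52 without WT replicate 4, the library with 1 count, and 0.55 without SIRT5F101L replicate 2. For Sirt2 the interval did not reach the size of its difference from Control in either group. For Sirt4 and Sirt6 it reached the size of the WT difference but not that of the SIRT5F101L difference, and for Sirt1, Sirt3, Sirt5 and Sirt7 it reached both. Without SIRT5F101L replicate 1, the library whose length slope stood apart, edgeR called 2213 genes (15.2% of those tested), Sirt7 among them (-0.29, edgeR adjusted p = 0.0111).

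Among the genes that make NAD+, the sirtuins' cosubstrate, or bring it into mitochondria, Nampt and Slc25a51 fell with either plasmid. Of 14 genes on the list 9 were tested, and in WT 1 rose and 3 fell, in SIRT5F101L 1 rose and 2 fell (median log2 fold change -0.21 and -0.16). Beside this and every further list stand the shares of all genes tested, 28.7% higher and 28.1% lower in WT and 30% and 30.7% in SIRT5F101L, and with so few genes a list's count is not a result about the list. Nampt, the rate-limiting enzyme of NAD+ salvage from nicotinamide, fell from 169 ± 8.83 CPM in Control to 132 ± 6.28 CPM in WT (log2 fold change -0.36) and 141 ± 5.99 CPM in SIRT5F101L (-0.27; edgeR adjusted p = 2.65e-05 and 0.000535). Slc25a51, the carrier that brings NAD+ into mitochondria, fell by 0.21 and 0.16 on the log2 scale (edgeR adjusted p = 0.00273 and 0.0148), and the second call was lost in 2 of 19 alternatives. The gene counted as higher was Ido1, which starts NAD+ synthesis from tryptophan. It stood at 0.190 ± 0.181 CPM in Control, near the level of 3 counts in a library (0.151 to 0.165 CPM), at 1.02 ± 0.329 CPM in WT and at 0.643 ± 0.223 CPM in SIRT5F101L, and it passed the filter only through the plasmid libraries, so the fold plotted for it rests on few Control counts. Nmrk2 was at 0 in all libraries, and Qprt, Tdo2, Kynu and Haao were under the filter.

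Of the enzymes that compete with sirtuins for NAD+, Parp14 and Bst1 rose and Parp3 fell with either plasmid. Of 13 tested, 6 rose and 3 fell in WT, and 7 rose and 4 fell in SIRT5F101L (median log2 fold change 0.17 and 0.32). Parp14, an ADP-ribosyltransferase of the interferon response, rose from 19.7 ± 1.26 to 48.7 ± 2.21 and 54.9 ± 4.96 CPM (log2 fold change 1.31 and 1.48). Bst1, an NAD+-cleaving ectoenzyme related to CD38, rose from 1.39 ± 0.466 to 5.84 ± 0.467 and 6.49 ± 0.375 CPM (2.08 and 2.22). Parp3, a DNA-break responder, fell from 127 ± 5.57 to 84.2 ± 0.643 and 75.2 ± 4.003 CPM (-0.59 and -0.76), the adjusted p of these 3 genes being at most 2.45e-08 in either comparison. Parp1, the main DNA-damage PARP, was not called (-0.01 and -0.08, edgeR adjusted p = 0.890 and 0.353), and Cd38, an NAD+ glycohydrolase near 1 CPM, fell in SIRT5F101L only by the threshold (-0.61 and -1.19, edgeR adjusted p = 0.157 and 0.0102), a difference between plasmids that was not called (-0.58, adjusted p = 0.548).

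All 3 tested genes of the list for NADP and nicotinamide conversion rose in both comparisons, and the fourth gene listed, Nnt, was under the filter. Nadk2, the mitochondrial NAD kinase, rose from 16.1 ± 2.03 to 45.7 ± 2.54 and 53.2 ± 2.88 CPM (log2 fold change 1.502 and 1.72). Nnmt, which methylates nicotinamide, the sirtuins' product and inhibitor, rose from 22.7 ± 1.05 to 64.2 ± 4.79 and 61.1 ± 6.53 CPM (1.499 and 1.43). Nadk, the cytosolic NAD kinase, rose by 0.53 in each, the adjusted p of the 3 genes being at most 1.47e-07 by edgeR.

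**Figure D4:**
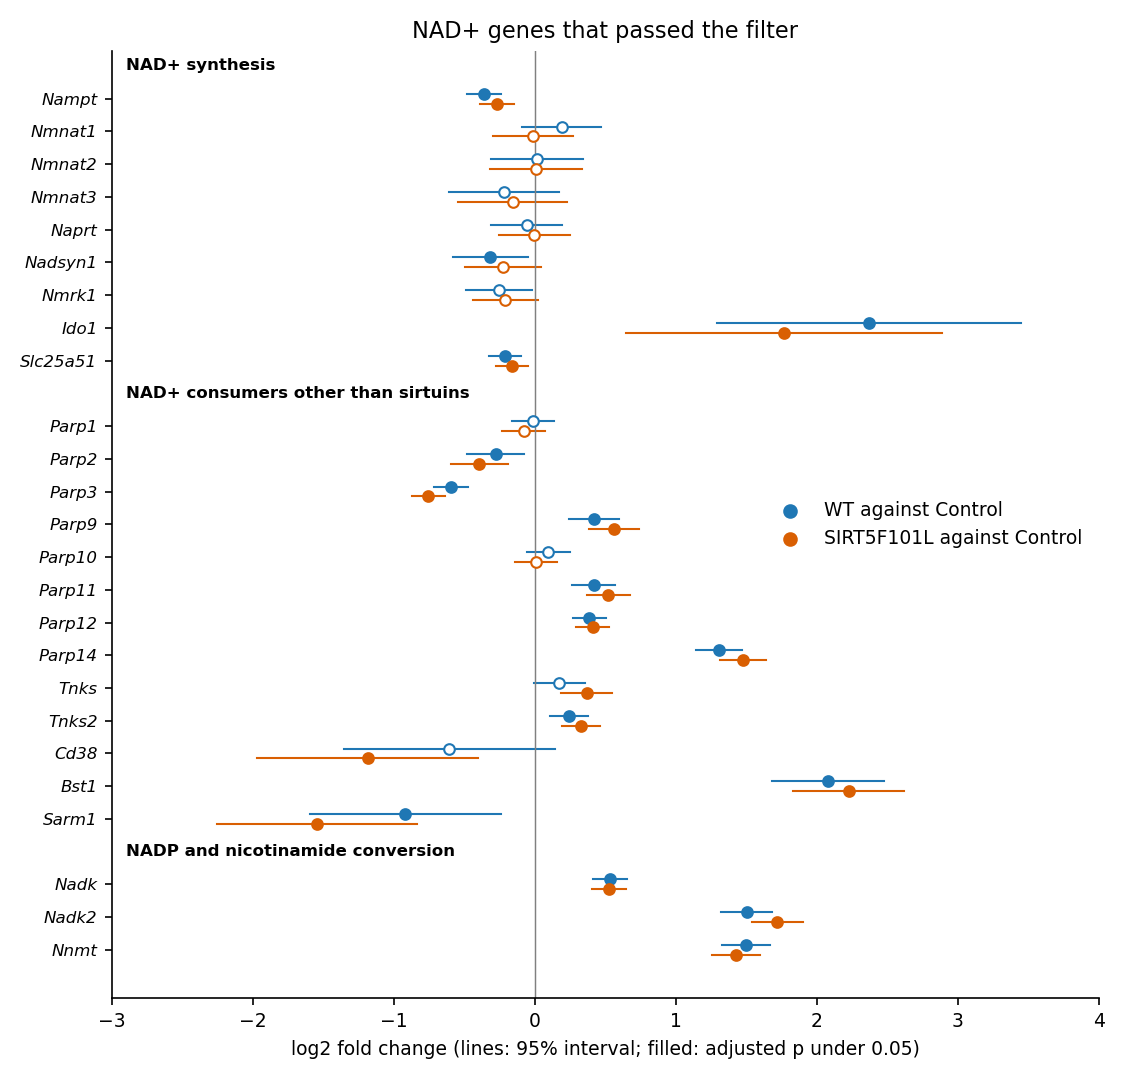
Log2 fold change against Control of the NAD+ genes that passed the filter, with 95% intervals, for WT (blue) and SIRT5F101L (orange); filled points have an adjusted p under 0.05. Bst1 (2.08 and 2.22), Nadk2 (1.502 and 1.72) and Nnmt (1.499 and 1.43) lie to the right, and Nampt (-0.36 and -0.27) to the left of 0.

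Of 8 regulators of SIRT1, 0 rose and 2 fell in WT and 1 rose and 3 fell in SIRT5F101L (median log2 fold change -0.01 and -0.14). Usp22, a deubiquitinase that stabilises SIRT1 protein, fell by 0.61 and 0.57 on the log2 scale, and Hic1, a repressor of Sirt1 transcription, fell by 1.003 and 0.82 (edgeR adjusted p at most 5.80e-05 for both genes). Senp1, a SUMO protease that acts on SIRT1 and SIRT3, had a log2 fold change of 0.15 in WT (edgeR adjusted p = 0.150) and rose by 0.35 in SIRT5F101L (edgeR adjusted p = 0.00165), where the call was lost with the length trend taken out (0.14, edgeR adjusted p = 0.113).

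Of 8 genes whose proteins are SIRT1 substrates, 5 rose and 2 fell in WT and 4 rose and 3 fell in SIRT5F101L (median log2 fold change 0.21 and 0.18). Ppargc1a, the coactivator of mitochondrial biogenesis, rose from 8.15 ± 1.54 to 19.7 ± 2.31 and 19.3 ± 3.39 CPM (log2 fold change 1.27 and 1.24, edgeR adjusted p at most 3.14e-07). Rela, the p65 subunit of NF-kB, rose by 0.31 and 0.26 (edgeR adjusted p = 0.000148 and 0.000768). Sox9, the transcription factor of the chondrocyte lineage, fell by 0.20 and 0.34 on the log2 scale (edgeR adjusted p = 0.0105 and 0.000132). Foxo1, a stress-response factor, rose by 0.23 and 0.38 (edgeR adjusted p = 0.0135 and 0.000185), but with the length trend taken out its values were 0.07 and 0.12 and passed in neither. Its WT call was also lost with upper-quartile scaling (0.18, edgeR adjusted p = 0.0513) and without Control replicate 2 (0.19, edgeR adjusted p = 0.0524). Trp53 rose by 0.21 in WT (edgeR adjusted p = 0.00609) and had 0.10 in SIRT5F101L (adjusted p = 0.145).

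Of 10 genes whose proteins SIRT3 or SIRT4 act on, 9 were tested, and 4 rose and 4 fell in WT, 3 rose and 4 fell in SIRT5F101L (median log2 fold change 0.16 and 0.11). Idh2, the mitochondrial isocitrate dehydrogenase that makes NADPH, fell from 100.7 ± 5.91 to 29.1 ± 1.59 and 26.8 ± 2.34 CPM (log2 fold change -1.79 and -1.91, edgeR adjusted p = 3.75e-14 and 1.41e-14). Sod2, the mitochondrial superoxide dismutase, rose from 76.3 ± 2.77 to 130 ± 6.58 and 130 ± 13.0 CPM (0.77 in each). Ppif, a regulator of the permeability pore, rose by 1.01 and 0.81, and Mlycd, malonyl-CoA decarboxylase, fell by 0.39 and 0.71 on the log2 scale (edgeR adjusted p at most 0.00304 for both genes).

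Of 8 genes whose proteins are SIRT5 substrates, 6 were tested. Cps1, a liver enzyme of urea synthesis, was among those under the filter. In WT 4 rose and 1 fell, and in SIRT5F101L 4 rose and 2 fell (median log2 fold change 0.38 and 0.37). Pkm, pyruvate kinase, rose from 2487 ± 136 to 4898 ± 223 and 4618 ± 396 CPM (0.98 and 0.89), and Gapdh, a glycolytic enzyme, rose by 0.58 and 0.60 (edgeR adjusted p at most 3.72e-06 for both genes). In this list, as in the other lists of the sirtuins' partners and in the related families, no gene was called between SIRT5F101L and WT. Without SIRT5F101L replicate 1, where 15.2% of all genes tested were called, 6 of the 32 genes singled out from these lists, most of them for a low adjusted p against Control, were called there: Parp14 (0.23), Nadk2 (0.25), Senp1 (0.27), Foxo1 (0.21), Hdac4 (0.25) and Mlycd (-0.38), with edgeR adjusted p of 0.00988 to 0.0336.

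The zinc-dependent histone deacetylases, which remove acetyl groups without NAD+, and the acetyltransferases, which add them, were set beside the sirtuins. Of 11 deacetylases 9 were tested, with Hdac6 and Hdac8 on chromosome X at 0, and 2 rose and 4 fell in each comparison (median log2 fold change -0.18 and -0.19). Hdac4, a repressor of chondrocyte hypertrophy, rose from 21.98 ± 0.887 to 53.5 ± 3.32 and 59.7 ± 9.16 CPM (1.28 and 1.44), and Hdac7 rose by 0.42 and 0.40. Hdac3 fell by 0.31 and 0.34 and Hdac5 by 0.24 and 0.36 on the log2 scale, with edgeR adjusted p of at most 0.00300 for these 4 genes. Of 10 acetyltransferases, 5 rose and 1 fell in WT and 7 rose and 1 fell in SIRT5F101L (median 0.16 and 0.31), among them Kat2a (0.54 and 0.41) and Hat1 (0.40 and 0.43), with edgeR adjusted p of at most 0.00141.

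For each sirtuin, the genes whose log2 CPM followed it most closely over the 12 libraries were sought among 12477 genes with a standard symbol. For Sirt2 these were Pycr1 and Tpm1 (Pearson r = 0.99 for both over all libraries, and 0.78 and 0.71 within groups), and for Sirt6 Bbc3 and Hvcn1 (0.96 and 0.96, within groups 0.84 and 0.82). For Sirt1 they were Scai and Rnf111 (0.95 and 0.94, within groups 0.93 and 0.91), and for Sirt7 Med4 and Rabepk (0.93 and 0.88, within groups 0.92 and 0.79). For Sirt3 they were Syvn1 and Tns1 (0.91 and 0.88, within groups 0.92 and 0.90), and for Sirt4 Lonrf2 and Stau1 (0.91 and 0.90, within groups 0.86 and 0.87). Those of Sirt5, which had only 1 to 19 counts in a library, were Zmiz1os1 and Pde6b (0.88 and 0.86, within groups 0.90 and 0.81). The highest of so many correlations over 12 libraries is high by selection, and the points share libraries, group differences and depth, so these values only describe likeness.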

How the data were processed

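The deposited files hold whole-number counts per Ensembl gene ID, unnormalized, 1 file per library. The authors' steps are known in part: per the labels' protocols, poly(A) libraries (NEBNext Ultra) were sequenced with 150 bp paired-end reads, and the submitters' processing notes name FastQC 0.11.9, HISAT2 2.2.1, HTSeq 2.0.2 and DESeq2 1.38.3 and the builds GRCm39 and mm39, without roles. The annotation and strand setting are not given in the sources used here. IDs without a symbol (4981 of 57010) held 0.377% to 0.821% of counts.

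Counts were tested in R 4.3.3 with edgeR 4.0.16 (filterByExpr, TMM scaling, quasi-likelihood test, 12 libraries in 1 fit with 9 residual degrees of freedom, Benjamini-Hochberg over 14253 genes). Alternatives were other scalings and filters, the 8 libraries compared, DESeq2 1.42.0, a loess trend on gene length as offset, and leaving out each library. The steps were tested on simulated data. Lengths, overlaps (bedtools 2.31.1) and copies (BLAST 2.17.0, at least 95% identity over at least 100 bases) come from GENCODE M21 on GRCm38, a build other than the authors'. Promoters are RefSeq's on GRCm38.p6. Totals of 15095357 to 24242139 counts make 1 count 0.0413 to 0.0662 CPM.

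Named were the 7 sirtuins, from each pathway or related-family list the 3 called genes with the lowest adjusted p in each comparison with Control (at most 30 in all), Nampt, Parp1 and Cd38, the 2 genes most like each sirtuin, and genes overlapping a sirtuin. Among the SIRT5 substrates, 1 gene that this rule names is not reported here. The lists were NAD+ synthesis, NAD+ consumers other than sirtuins, NADP and nicotinamide conversion, SIRT1 regulators, SIRT1 substrates, SIRT3 and SIRT4 substrates, SIRT5 substrates, zinc-dependent histone deacetylases, lysine acetyltransferases, and markers of chondrocytes, leukocytes, fibroblasts and endothelium. Members and lists were chosen with earlier results of these data known.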

Additional observations from a re-analysis of the deposited data

Results flagged for a closer look

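Each of the 7 sirtuins and the summed level were screened in each group of 4 libraries for a library far from the others by Dixon's criterion, 24 values in all, of which chance marks about 1 in 20. The criterion picked out 2 values, where 1.2 were expected by chance. Sirt3 stood at 16.3 CPM in WT replicate 3, with the other 3 WT libraries between 12.3 and 12.9 CPM. Sirt5 stood at 1.23 CPM in SIRT5F101L replicate 2, or 19 counts, with the other 3 SIRT5F101L libraries between 0.481 and 0.601 CPM, or 9 to 15 counts.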

How the results depend on the processing

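Sirt2 and Sirt6 kept their direction and their call in both comparisons with Control under all 19 alternatives: for Sirt2 the log2 fold change ranged from -0.48 to -0.38 in WT and from -0.58 to -0.45 in SIRT5F101L, and for Sirt6 from -0.45 to -0.31 and from -0.65 to -0.47. The count of called sirtuins was 2 to 4 in WT and, leaving out each library, 2 to 5 in SIRT5F101L (5 without SIRT5F101L replicate 1), where Sirt1 was also called with RLE scaling (0.22, edgeR adjusted p = 0.0459), DESeq2 (0.22, adjusted p = 0.0443) and the 8 libraries compared (0.23, adjusted p = 0.0400). Between SIRT5F101L and WT it was 0 to 1 leaving out each library. The genes called there numbered 354 with no filter beyond 1 count, 2 with the 8 libraries compared, 37 with DESeq2 and 20 with the length trend as offset, and 0 to 2213 leaving out each library; the cause was not tested. With the longest transcript as length, Sirt4 and Sirt1 changed places in WT, and no member took another rank in the other groups. Several small fold changes turned direction with no call on either side. These were, in SIRT5F101L against WT, Sirt3 with RLE scaling (0.00032), upper-quartile scaling (0.00053) and DESeq2 (0.00043), Nnmt with the length trend as offset (0.0039), and Sod2 with no filter (-0.0010) and the length trend (-0.0545); Sirt5 in SIRT5F101L against Control with upper-quartile scaling (-0.0109); and Parp1 in WT against Control with the 8 libraries (0.0019). Leaving out each library, values spanned 0 in SIRT5F101L against WT for Sirt3 (-0.101 to 0.0947), Sirt4 (-0.172 to 0.0520), Gapdh (-0.0416 to 0.0730), Hat1 (-0.0543 to 0.0825), Hdac3 (-0.0834 to 0.0159), Hdac7 (-0.0761 to 0.0374), Nadk (-0.0352 to 0.0141), Ppargc1a (-0.101 to 0.0887), Sod2 (-0.0643 to 0.0443) and Usp22 (-0.00254 to 0.0949), for Sirt5 in SIRT5F101L against Control (-0.315 to 0.182) and for Parp1 in WT against Control (-0.0637 to 0.0354). No paired analysis was possible because the labels give no replicate numbers, and the numbers used here only name libraries in accession order. Depth limited Sirt5, at 1 to 19 counts in a library, more than any other sirtuin, and intervals cover the spread between these libraries only.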
